A study of Drosophila melanogaster with 18 samples.

Results

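Insertions and deletions of a few amino acid residues that keep the reading frame were described in 9 genes of Drosophila melanogaster, in mutant lines kept from a forward screen on how muscles take shape. The genes were CG4341, CG44085, CG10543, mam, bib, Eaf, CG30122, Nak and B4, out of 129 genes with a listed variant. The members were chosen by their gene symbol and by their listed consequence, an in-frame insertion or an in-frame deletion, in the variant lists of the mutant lines sj266, sj440 and sj461. That a change keeps the frame is therefore part of the choice and not a result. The genes were grouped as carriers of changes in amino acid repeats, which the listed residues bear out in part. In 3 of the 10 distinct changes, those of CG4341, bib and Eaf, the listed reference residues hold at least 2 of the changed residue in a row, and in the other 7 they hold fewer. Polyadenylated RNA of whole stage 12 embryos was sequenced, in 2 samples of sj266, 3 of sj440 and 3 of sj461 (2 replicates per line, which the design text calls technical, with 1 of them as 2 samples in sj440 and in sj461). All these embryos were homozygous ones, picked by hand by means of a fluorescent balancer. The mutagen, the parental stock and the further alleles of each line are not given in the labels. No unmutagenised stock is among the samples, so a new lesion and a difference already present in the stock cannot be told apart. Each line has 1 list for all its samples, with no read depth, allele share or value per replicate. The values below therefore have no replicate error and an unknown depth, and they were given without a test.

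The 9 genes were listed in 37 rows, which hold 15 distinct pairs of position and alleles. Some of these write 1 event in different ways. In 4 cases a gene had 2 entries in a line, and in each of the 4 both entries turned the listed reference bases into the same sequence. With such entries counted once there were 11 changes, 5 in sj266, 3 in sj440 and 3 in sj461. The CG4341 insertion was listed identically in sj266 and sj440, which leaves 10 distinct changes.

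Runs of 1 repeated amino acid are common in regulatory proteins of Drosophila, and glutamine runs, encoded by the codons CAG and CAA, are the best known of them. Repeated codons gain and lose copies more readily than other coding sequence, so run length often differs between fly stocks. Several of the genes belong to well-studied processes. The product of mam is a nuclear coactivator that joins the Notch intracellular domain and Su(H) on target genes. The gene bib (big brain) encodes a membrane protein of the aquaporin family that is needed for Notch-dependent choice between neural and epidermal fates. Nak is a protein kinase that binds Numb, an inhibitor of Notch, and acts in clathrin-mediated endocytosis. In the embryonic mesoderm, Notch signalling limits how many cells become muscle progenitors. Eaf binds the elongation factor ELL and acts in transcription elongation by RNA polymerase II.

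The alleles of the 6 distinct changes on the left arm of chromosome 2 are shown to let the inserted codons be set beside the reference codons listed next to them. They are written 5′ to 3′ on the coding strand, from the codons in the authors' lists, with the inserted codons in capitals. Within a repeat the place of an inserted copy cannot be fixed, and capitals mark the first codon at which both alleles differ.
CG4341, residues 475 to 476, reference: agcagc
CG4341, sj266 and sj440: agcagcAGC
CG44085, residues 401 to 402, reference: caacca
CG44085, sj440: caaCAAcca
CG44085, residue 623, reference: ccg
CG44085, sj266: CAGCAGccg
bib, residues 671 to 672, reference: caacag
bib, sj461: caaCAACAGCAGCAAcag
Nak, residues 1223 to 1224, reference: tataat
Nak, sj461: tataatAAT
B4, residues 315 to 316, reference: tcgggc
B4, sj266: tcgggcTCGGGC

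In CG4341, CG44085 of sj440, Nak and B4 the inserted bases copied the bases listed beside them exactly. In bib the 4 inserted codons were a mixture of both glutamine codons. The listed bases at residue 623 of CG44085 hold only the proline codon that follows the insertion, so the codons before it are not shown.

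Both insertions of 4 residues were glutamines, in CG10543 of sj266 and in bib of sj461. Insertions of 2 residues numbered 4, in mam, B4, CG30122 and CG44085 of line sj266. Insertions of 1 residue numbered 3, in CG4341, Nak and CG44085 of sj440. The single deletion took 1 glutamine from Eaf in sj266. No change added 3 residues. Over the 10 distinct changes the 9 insertions added 19 residues and the deletion removed 1. Summed within lines, the net change was 8 residues over 5 changes in sj266, 4 over 3 in sj440 and 7 over 3 in sj461.

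**Figure D1:**
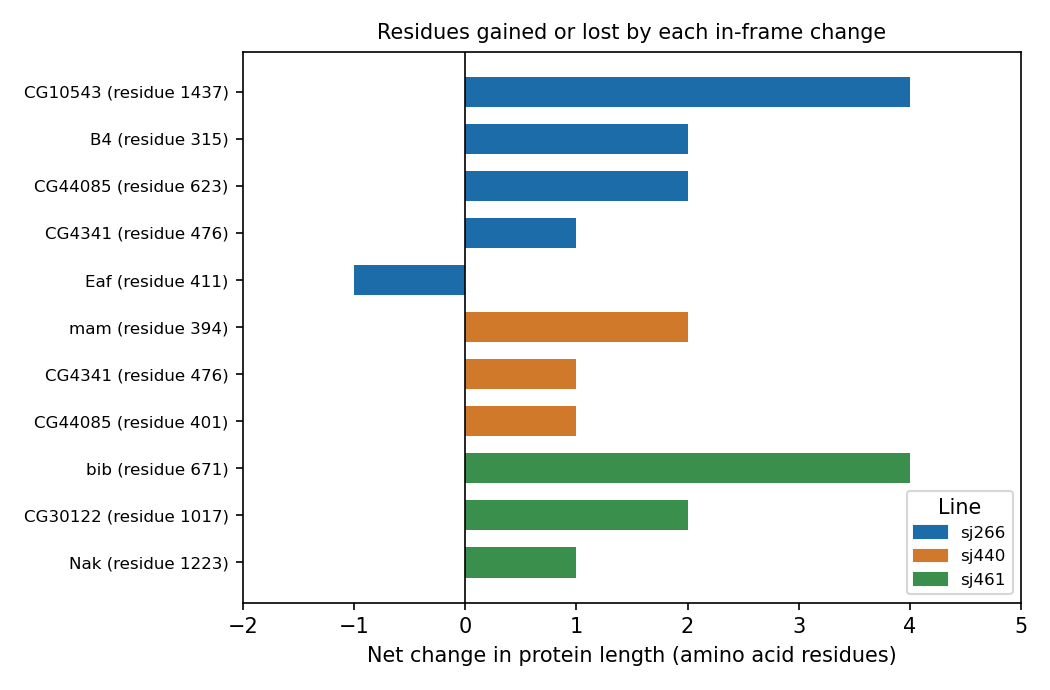
Net change in protein length, in amino acid residues, for each of the 11 changes counted per line, with the first listed residue in brackets and the line as colour. CG10543 and bib gained 4 residues each, and Eaf, which lost 1, is the only bar left of 0.

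Among genes linked to Notch signalling, mam carried a change in sj440, and bib and Nak each carried one in sj461. In mam, 2 glutamines were added after residue 394, where a glutamine and a histidine are listed (2R, position 14039194, quality 97). The quality is the score the authors' variant caller gave the call, on a scale that the sources used here do not define. The mam insertion was written in 5 rows with the same position and alleles, and its annotation was read for transcript FBtr0087596. The insertion lay 47991 bases from the start of a gene that spans 13991203 to 14060356.

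In bib, the 2 glutamines listed at residues 671 and 672 became 6 (2L, position 9994579, quality 129). As the figure of 6 counts listed residues alone, the run may be longer. In Nak, a tyrosine and an asparagine at residues 1223 and 1224 were followed by 1 more asparagine (2L, position 18959094, quality 121). Nak is the only one of the 9 genes in which asparagine was the residue added. The gene bib spans 9984645 to 9995538 and Nak spans 18957732 to 18968744.

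Eaf had the longest run that the lists show among the 9 genes, 7 glutamines in the reference from residue 411 on, of which 6 were left (2R, position 7398657, quality 99). The listed stretch ends with a histidine at residue 418, which closes the run on that side. CG10543, whose product the files and the gene table do not describe, had 1 listed glutamine at residue 1437 turned into 5 (2R, position 21005650, quality 155). CG30122, for which the RefSeq gene table gives the older names hnRNP U and SAF-A, gained a glycine and a serine at residue 1017 (2R, position 18633784, quality 135). In mammals hnRNP U is an RNA-binding protein of the nuclear matrix. Unlike the other insertions, the one in CG30122 could not be written as 1 run of whole codons, since it split the listed glycine codon.

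CG4341, CG44085 and B4 made up the rest. CG4341 is named Tmtc2 in the RefSeq gene table, and in mammals the TMTC proteins are enzymes of the endoplasmic reticulum that attach mannose to cadherins. It gained 1 serine beside 2 listed serines (2L, position 952951), with a quality of 89 in sj266 and 157 in sj440. B4, also called Susi, is a negative regulator of phosphoinositide 3-kinase. Its serine and glycine at residues 315 and 316 were doubled to serine, glycine, serine, glycine (2L, position 13508817, quality 106).

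CG44085 was the only one of the 9 genes with different changes in different lines, and both added glutamine just before a proline. In sj266 it gained 2 glutamines at residue 623 (2L, position 13273751, quality 111). In sj440 it gained 1 glutamine after residue 401 (2L, position 13272516, quality 131). The sites are 663 coding bases but 1233 genomic bases apart, so 570 bases between them lie outside the coding sequence of transcript FBtr0334851 and the sites are in different coding exons. The cDNA and coding positions differed by 498 at both sites, as they must within 1 transcript.

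Glutamine was the residue changed in 6 of the 10 distinct changes and in 5 of the 9 genes, namely CG10543, CG44085, mam, bib and Eaf. The 5 gains added 13 glutamines, 8 through CAG and 5 through CAA. CG10543 gained 3 CAG and 1 CAA, bib 2 of each, and mam 1 of each. CG44085 gained 2 CAG in sj266 and 1 CAA in sj440. The glutamine lost from Eaf was encoded by CAG. Gains in CG10543, mam and bib thus mixed both codons, while the other glutamine changes were of 1 codon.

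A run of at least 4 of the changed residue was listed, in the longer of both alleles, for 3 of the 10 distinct changes: Eaf with 7, bib with 6 and CG10543 with 5. CG4341 and mam reached 3. The insertions in bib and CG10543 were themselves of 4 glutamines, so their changed alleles meet this limit by the insertion alone. In the reference allele alone a run of at least 4 was listed for 1 change, that of Eaf. These lengths are lower bounds, because the lists hold only the codons an entry touches and no protein sequence was used here. In 8 of the 10 changes the residues gained or lost were all of kinds also listed on the other allele. The exceptions were CG30122, where the serine gained was not among the listed reference residues, and CG44085 of sj266, where only proline was listed. CG4341 was judged by its longer entry in sj440, since its entry in sj266 lists no reference residue.

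The lists held 11 other in-frame changes in 10 genes, again with equivalent entries counted once. Those of sj266 were in retn, tou, pdm2 and Piezo, those of sj440 in Np, Mnn1, E23 and CG8854, and those of sj461 in Np, cana and LS2. None of the 11 gained or lost glutamine, and their net changes lay between -2 and 3 residues. Their longest listed runs of a changed residue were 6 in Np of sj461, 5 in pdm2 and 4 in tou. In the reference allele these runs were 5, 5 and 3, with 3 in Piezo and 2 in Mnn1. Listed runs of at least 4 were thus not particular to the 9 genes. In 4 of the 11, namely retn, tou, pdm2 and Np of sj461, the change consisted of residues also listed on the other allele. The entries of LS2 and of Np in sj440 list no reference residue, so these insertions could not be of that kind. Since the 9 genes were picked with the lists in view, the contrast with them in glutamine and in copied residues is a description of that choice.

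Of the 10 distinct changes, 1 was shared between lines, the serine insertion in CG4341 of sj266 and sj440. A further gene, CG44085, was changed in the same lines at different sites. Genes outside the 9 were also listed in both sj266 and sj440, namely CG10764, CG31897, HmgZ, Lpin, ord and pyr. Np likewise had in-frame changes at different sites, in sj440 and sj461. The 3 changes of sj461 were in genes with no listed variant in either of the other lists. Of the 53 genes listed in sj461, only CG15082, DIP-kappa, Msp300, Np, ds and tou were also listed in another line. Absence from the other lists was therefore the usual case, and nothing is read from it for these 3. The lists held 35 genes in sj266, 55 in sj440 and 53 in sj461, and 129 distinct genes together. The lists of sj266 and sj440 come from the same workbook, and that of sj461 from another, so workbook and line cannot be told apart here. None of the 9 genes had a listed variant besides its in-frame change. The nearest listed variant of another gene in the same line was between 25073 bases (Gint3, from CG30122) and 1923460 bases away (CG8814, from CG4341 in sj266).

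Quality scores of the 15 entries lay between 89 and 157. In sj266 the changes had 155 in CG10543, 111 in CG44085, 106 in B4, 99 in Eaf and 89 in CG4341, with a median of 106, against a median of 55 for the 32 other variants (range 21.2 to 220). They stood at ranks 5, 6, 7, 9 and 12 of 37. In sj440 the changes had 157 in CG4341, 131 in CG44085 and 97 in mam, with a median of 131, against 49.4 for 63 others (26.4 to 228). Their ranks were 11, 15 and 20 of 66. In sj461 the changes had 135 in CG30122, 129 in bib and 121 in Nak, with a median of 129, against 57 for 61 others (26.4 to 228), and ranks of 7, 8 and 10 of 64.

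None of the changes of the 9 genes was the best-scored variant of its line. That place was held by bark in sj266 (220, followed by Oatp30B with 215) and by ptc in sj461 (228, followed by CG7102 with 164). In sj440, 5 variants tied at 228, ds and bowl among them. Set against the other in-frame changes of the same line, those of the 9 genes had a median of 106 against 45.1 in sj266. In sj440 they had 131 against 146.5, the only line where theirs was lower, and sj461 had 129 against 107. Whether the caller scores insertions and single-base changes on the same scale was not tested. The score also differed between equivalent entries of 1 event: 157 and 117 for CG4341 in sj440, 155 and 131 for CG10543, 135 and 127 for CG30122, and 131 and 127 for CG44085 in sj440.

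**Figure D2:**
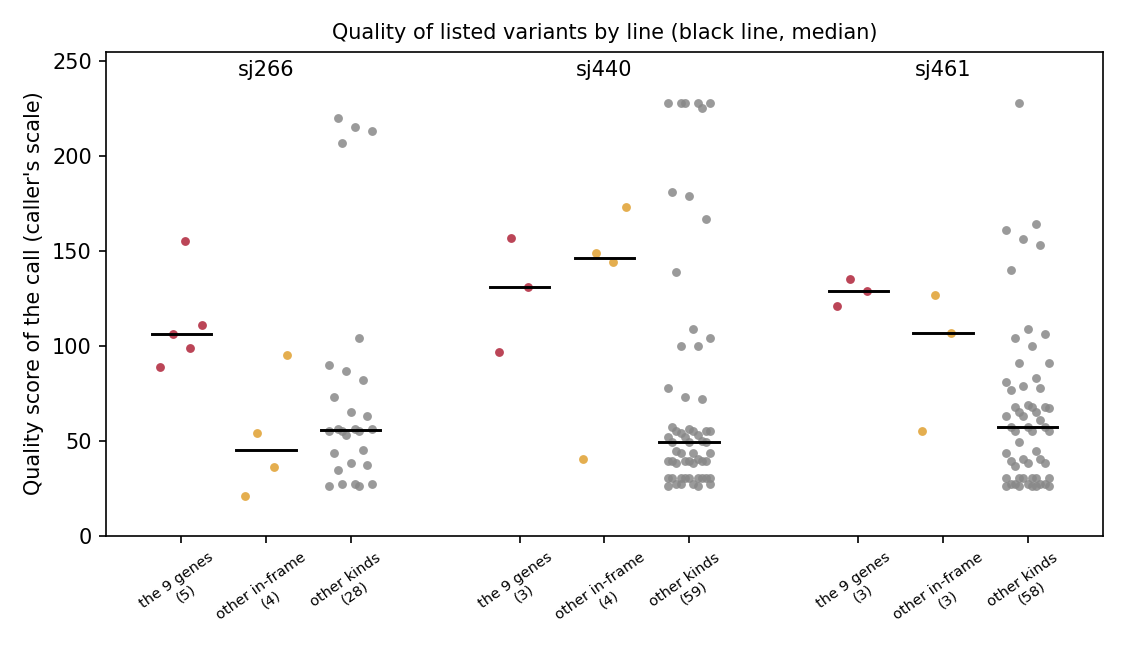
Quality score of each listed variant, on the caller's own scale, by line and by kind, with the number of variants in brackets and the median as a black line; equivalent entries are shown once, at their highest score. The changes of the 9 genes lie between 89 and 157, above the median of the variants of other kinds in each line and below the highest of them.

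Most of the changes lay in the 3′ part of their genes. Measured from the transcribed start along the gene's interval, introns and untranslated parts included, the 10 distinct changes had a median place of 82.5% of gene length, with the lowest at 50% (CG44085 in sj440) and the highest at 91.2% (bib). Of the 10, 7 lay past 75% of the gene, in CG4341, CG10543, bib, Eaf, CG30122, Nak and B4. CG44085, with its sites at 55.3% and 50%, and mam at 69.4% were the genes below that limit, which was set after the places were seen. The other 11 in-frame changes had a median of 66.2%, with 2 of 11 past 75%. The 98 single-base coding variants of the lists had a median of 49.3%, with 32 of 98 (32.7%) past 75%. No test was made of this difference, and the share of each gene that is coding was not used here.

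**Figure D3:**
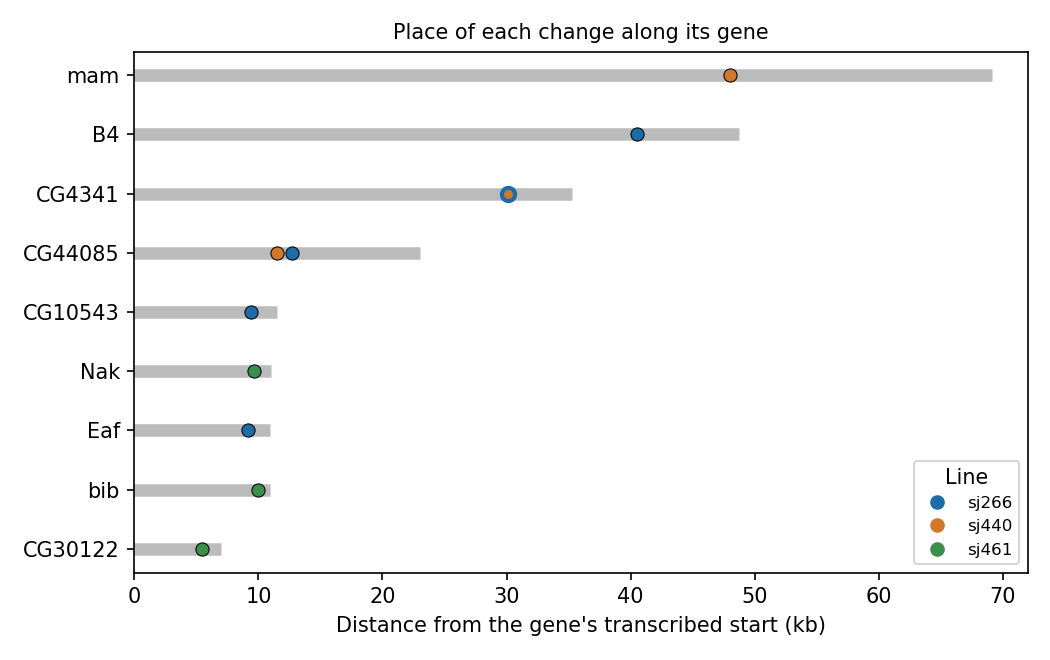
Place of each of the 10 distinct changes (points, coloured by line) along its gene (grey bars, drawn from the transcribed start to the end of the gene's interval), in kilobases. The CG4341 insertion, at 30158 bases of 35306, is ringed because both sj266 and sj440 hold it, and bib has its point nearest to the gene's end.

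The lists were searched for further genes of the same processes. Of 32 genes of the Notch pathway, all found in the RefSeq gene table, 11 lie on chromosome 2, the only chromosome the variant lists hold. A variant was listed in 3 of these 11, and they were mam, bib and Nak. Over all 5508 protein-coding genes of chromosome 2 in the table, 129 (2.34%) had a listed variant, but the Notch list was drawn up with these 3 genes known, so nothing is read from the contrast. The ligand genes Delta and Ser and Notch itself lie on other chromosomes and could not appear. Of 21 genes of transcription elongation 8 lie on chromosome 2, and 2 were hit, both in sj266. Beside Eaf this was Spt5, whose product travels with RNA polymerase II, with the missense change E225K (2R, position 19438822, quality 213) and a splice acceptor change (quality 26.4). Of 16 genes of clathrin adaptors and endocytosis 6 lie on chromosome 2, and Nak was the 1 with a variant. The other lists of genes were likewise drawn up with the 9 genes known, so these counts are no independent evidence for any process.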

How the data were processed

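Per the labels, RNA of whole embryos of each line was sequenced. The build BDGP6 and the tools STAR 2.5.4b and cutadapt 2.4 are named in the submitters' processing notes. For calling, filtering and annotating variants, the programs are not given in the labels or files. Each line has a list in which the authors deposited a quality score for every variant, its position counted from 1, and its annotated codons and residues. Here, rows of a line with the same position and alleles were merged first, and the annotation of 1 such row was kept. Then entries that share gene, line and net length and lie within 30 bp were merged. Merged entries were compared by rewriting the listed reference bases with each. Codons were compared with residues and bases, and all 28 in-frame entries of the lists matched. Gene intervals came from the RefSeq gene table (assembly Release 6 plus ISO1 MT), where all 9 genes were found, CG4341 under a newer symbol. The planned search for runs in full protein sequences was replaced by runs in the listed residues. The members, the gene lists and the rule for named genes (all members, all other in-frame changes, the 2 best-scored other variants of each line) were chosen with earlier results of these data known. Comparison functions were tested on simulated alleles and returned the known answer for 200 of 200 equivalent and 200 of 200 different pairs. Both entries of a simulated pair began at the same position. The merged entries of the 9 genes began at different positions, a case the simulated pairs did not include. Python 3.11.15, pandas 2.3.3 and numpy 2.4.6 were used.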

Additional observations from a re-analysis of the deposited data

How the results depend on the processing

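Of 40 values under other settings, 18 were identical to the reported value and 22 were not. With exact alleles only, sj266 had 6 changes in place of 5, sj440 5 in place of 3 and sj461 4 in place of 3. A quality of at least 100 left 3 of the 5 in sj266, 2 of the 3 in sj440 and all 3 in sj461. Counting every entry gave net changes of 12, 6 and 9 residues in sj266, sj440 and sj461. A run of at least 3 was listed for 5 distinct changes in place of 3, a run of at least 6 for 2, and a run of at least 4 in the reference allele for 1. Shared between lines by gene alone were 2, in place of 1. The medians of the changes of the 9 genes exceeded those of other variants by 51, 81.6 and 72 points of quality. With the lowest score of equivalent entries the excess was 67.6 in sj440 and 70 in sj461. With every entry counted it was 53.5, 77.6 and 71. Against missense variants it was 50 in sj266 and 89.6 in sj440. Against other in-frame changes it was 60.9 in sj266 and 22 in sj461, and it turned to -15.5 in sj440. The cause of these shifts was not tested. Runs within other distances of the site were not run, since no protein sequence was used. No paired analysis was possible because each line has 1 list over its samples, and for the same reason no replicate was left out.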

Other observations

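The triplet CAG was gained or lost in 3 reading frames of the lists. Changes made up of whole copies of CAG alone, counted in any frame on the coding strand, numbered 5, with 3 among the 10 distinct changes of the 9 genes and 2 among the 11 other in-frame changes. In a further 3 of the 10, those of CG10543, mam and bib, CAG codons were gained together with CAA. Read as CAG it gave glutamine in CG44085 of sj266 and in Eaf. Read as AGC it gave serine in CG4341 and in the protease gene Np of sj461, where the listed run had 5 serines in the reference and 6 in the line (quality 107). Read as GCA it gave alanine in the POU factor gene pdm2 of sj266, where 5 listed alanines became 4 (quality 36.3).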
